A study of Mus musculus with 6 samples.

Results

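Gamma-secretase is a membrane protease that cuts the membrane stubs of many single-pass proteins, Notch receptors among them. It works after a first cut outside the membrane, made by a sheddase such as ADAM10 or ADAM17, and the product of the second cut of Notch enters the nucleus. The complex holds a presenilin as its catalytic subunit, nicastrin as the subunit that receives the substrate stub, an APH-1 protein as scaffold, and PEN-2, the subunit that completes its maturation. In vascular smooth muscle, Notch signalling through this pair of cuts is known for its part in the contractile state of the cells. The genes described here are 6 that encode subunits of the complex (Psen2, Ncstn, Aph1a, Aph1b, Aph1c and Psenen) and 3 that encode sheddases (Adam10, Adam17 and Bace1). They were chosen by gene symbol from a table of 37309 genes, with earlier results of these data known. All 9 symbols were found, each on 1 row, and all 9 passed the filter on low values.

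RNA was sequenced from aortic smooth muscle cells taken from the descending part of the vessel in the Immorto mouse, a strain with a conditional large T antigen that lets its cells be grown on in culture. Vehicle cells received DMSO and treated cells received DAPT, a gamma-secretase inhibitor, at 50 uM, in both cases for 3 days, with 3 libraries per group. The labels do not say whether the libraries of a group came from separate cultures or animals, so p-values measure only the spread between these libraries, which may be technical. DAPT acts on the enzyme, and RNA levels do not measure its activity.

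Recovered totals ran from 10702548 to 14503665 reads per library. Of the 8 smooth muscle markers 7 were tested, of which 2 fell and 5 did not pass. Acta2 and Tagln fell from 520 ± 50.8 to 252 ± 26.3 and from 925 ± 60.6 to 495 ± 36.1 normalised counts, and the summed level of all 8 ran from 2538 to 2733 in vehicle and from 1826 to 2022 under DAPT. Smtn, the most abundant, was at 1078 ± 17 and 1069 ± 33.9. Myh11 was low at 49.2 ± 4.28 in vehicle (SD, n = 3), and Myocd was close to 0, at no more than 1.2 in any library. The endothelial markers Pecam1, Cdh5, Tie1 and Emcn and the leukocyte markers Ptprc, Emr1 and Itgam had means under 10, although the summed leukocyte list ran from 539 to 585 in vehicle and from 608 to 620 under DAPT. Of its 3 tested markers Cd68 rose from 178 ± 12 to 218 ± 2.53, while Cd14 (209 ± 2.62 and 208 ± 9.81) and Csf1r (175 ± 18.2 and 190 ± 9.15) did not pass. The summed endothelial list ran from 584 to 640 and from 596 to 618. Most of it came from Kdr, at 541 ± 18.1 in vehicle and 529 ± 14.2 under DAPT. Tek was at 41.4 ± 14 and 48.1 ± 2.2 and Vwf at 19.9 ± 2.68 and 25.8 ± 5.14. None of these 3 passed. All 10 adventitial fibroblast markers and all 5 mesothelial markers were measured, and both kinds moved with the treatment. The summed level of the mesothelial markers ran from 2897 to 2955 in vehicle and from 1517 to 1648 under DAPT, and 4 of the 5 fell. The summed fibroblast markers ran from 66548 to 73261 and from 63347 to 64378, with 6 of 10 lower and 2 higher. Over all genes tested 8.91% were called lower and 9.22% higher, and the counts of each marker list are to be read beside these shares. In such bulk RNA, fewer cells of a type and less RNA per cell cannot be told apart, and the part of these markers in the results below was not tested.

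Levels are normalised read counts, that is reads per gene divided by 1 size factor per library. Changes are log2 differences, DAPT minus vehicle, after adding a pseudocount of 1. Tests are limma's, with p-values adjusted over all 14906 genes tested by the Benjamini-Hochberg method and a threshold of 0.05. Count tests, edgeR and DESeq2, were run as alternatives on reads recovered for 5 libraries, without DAPT replicate 3. The Notch target Hes1 fell 1.54-fold in these libraries (limma adjusted p = 6.35e-07).

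Under DAPT the sheddase genes Adam10 and Adam17 rose, while Bace1 and the subunit gene Ncstn fell. All 4 changes were small, between 7.2% and 14.5%. The other 5 subunit genes (Psen2, Aph1a, Aph1b, Aph1c and Psenen) did not pass the test. That makes 4 of 9 genes called, where 18.1% of all genes tested were called. The 9 genes were chosen with earlier results of these data known, so this comparison is a description and not a test. Of the 9, 2 were called higher against 9.22% of all genes, and 2 lower against 8.91%. The median log2 change was -0.02 over the 9 genes and 0.0009 over all genes tested. Among all 2703 genes called, the median size of the log2 change was 0.24 with a lower quartile of 0.17, and Ncstn, Adam10 and Bace1 lay below that quartile. Of the 9 genes 2, Adam10 and Adam17, are below an adjusted p of 0.05 in the authors' deposited table, beside 6.19% of the genes with a value there. In 5 of the 9 genes the groups did not overlap, against 33.3% of all genes tested.

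**Figure D1:**
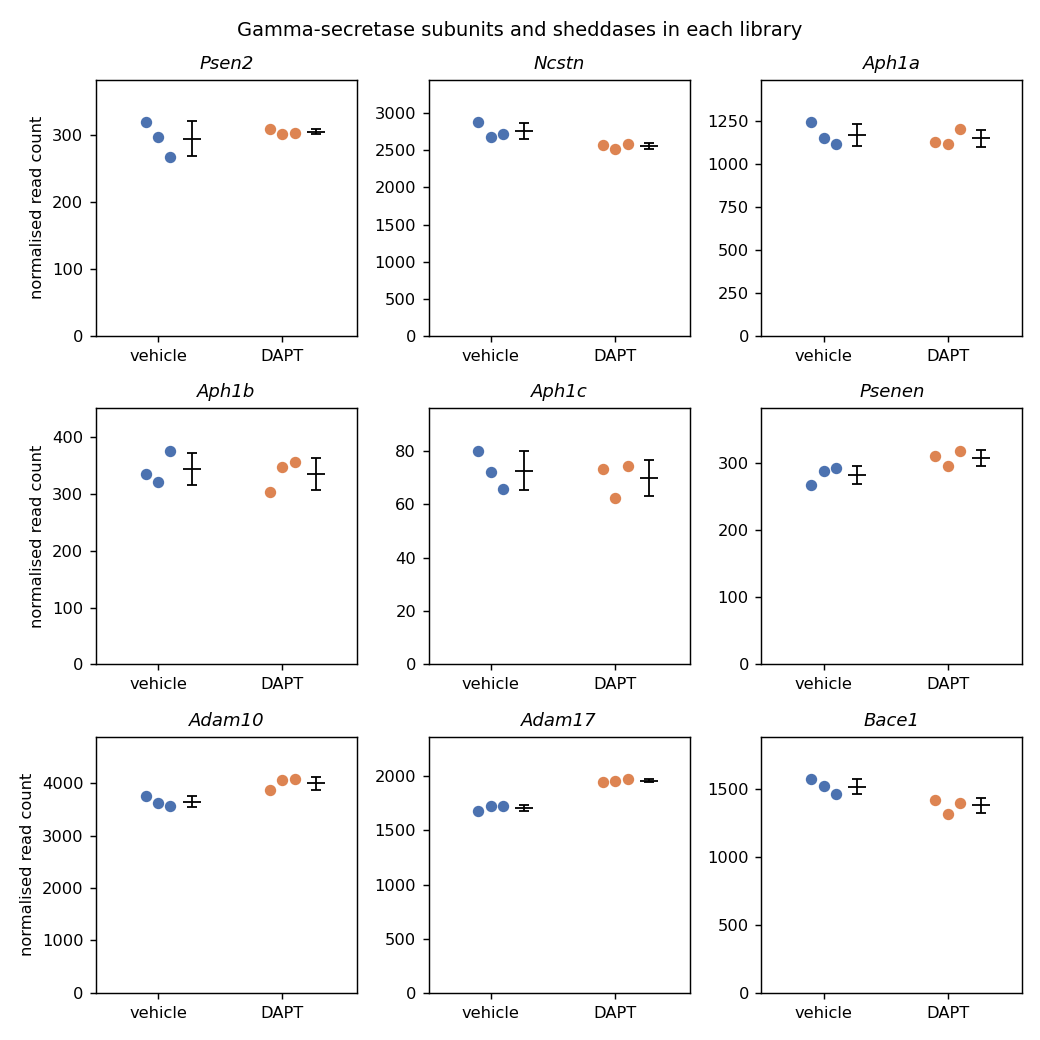
Normalised read count (vertical axes, from 0) of each of the 9 genes in the 3 vehicle and 3 DAPT libraries; points are libraries and the black marks show mean ± SD. The groups separate in Adam10, Adam17, Bace1, Ncstn and Psenen, and overlap in Psen2, Aph1a, Aph1b and Aph1c.

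Among the subunits, Psen2 encodes a presenilin, which carries the catalytic aspartates. Its normalised counts were 318, 297 and 267 in vehicle and 308, 301 and 303 under DAPT. The DAPT libraries lay inside the range of the vehicle libraries. The log2 change was 0.05 (SE 0.0724, limma adjusted p = 0.695), with a 95% interval from -6.56% to 15% of the vehicle level.

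Ncstn encodes nicastrin, the large glycoprotein that admits substrate stubs to the complex. Its counts were 2875, 2675 and 2721 in vehicle and 2570, 2512 and 2591 under DAPT. Every DAPT library was below every vehicle library, and vehicle replicate 1 was the highest of the 6. Ncstn fell by 7.2% (log2 change -0.11, SE 0.0363, limma adjusted p = 0.0404). The call was lost when vehicle replicate 1 was left out (adjusted p = 0.175), with any DAPT library left out (0.0872, 0.167 and 0.0742 for replicates 1, 2 and 3), with no filter (0.0605), in edgeR on 5 libraries (0.0653) or in DESeq2 on 5 libraries (0.242).

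Psenen encodes PEN-2, the small subunit that triggers the cut by which presenilin matures. It was at 267, 288 and 292 in vehicle and at 311, 295 and 318 under DAPT. All DAPT libraries were above all vehicle libraries, but by as little as 3 counts, and the test was not passed (log2 change 0.12, SE 0.0696, limma adjusted p = 0.245). The 95% interval, from -1.39% to 20.4%, includes changes as large as those of Adam10 and Adam17. In the GENCODE M21 annotation, exons of U2af1l4 and Gm49396 on the opposite strand overlap those of Psenen, and whether strand was used in counting is not given in the sources used here, so reads of these genes may be mixed. The same holds for Ncstn with Copa, Aph1a with Car14, Aph1c with Gm17098, Adam17 with Iah1, and Bace1 with Rnf214, Gm16536 and Gm49338. Psen2, Aph1b and Adam10 had no exon overlap with another gene.

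The mouse has 3 APH-1 genes, and a complex holds 1 APH-1 protein. Aph1b and Aph1c lie side by side on the minus strand of chromosome 9, at 66775202 to 66795490 and 66814994 to 66834726 (GRCm38, GENCODE M21), while Aph1a is on chromosome 3. Their coding sequences were compared because reads from near-identical copies can be lost or assigned to the wrong gene. Aph1b and Aph1c matched at 742 of 771 aligned coding bases, or 96.2%, against 61.1% for Aph1a and Aph1b and 61.2% for Aph1a and Aph1c. The first 150 coding bases of each, taken from the GENCODE M21 transcripts, hold 16 of the differences, shown in capitals.
Aph1b: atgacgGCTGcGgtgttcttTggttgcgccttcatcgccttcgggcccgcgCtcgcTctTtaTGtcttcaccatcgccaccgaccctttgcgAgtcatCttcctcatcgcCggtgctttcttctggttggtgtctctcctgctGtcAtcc
Aph1c: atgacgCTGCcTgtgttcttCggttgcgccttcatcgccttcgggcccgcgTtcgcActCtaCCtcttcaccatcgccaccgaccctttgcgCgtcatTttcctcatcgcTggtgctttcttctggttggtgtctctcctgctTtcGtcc
Of all windows of 50 bases in the Aph1c coding sequence, 46.5% occur without change in an Aph1b transcript, and of those in the longest Aph1c transcript 18.5%. With windows of 36 bases the shares were 51.3% and 22.9%, and with windows of 100 bases 35.9% and 8.83%. The read length is not given in the sources used here, so the counts of Aph1b and Aph1c are uncertain to an extent that could not be set.

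Aph1a, the most abundant of the APH-1 genes, was at 1244, 1154 and 1119 in vehicle and at 1132, 1117 and 1208 under DAPT. The groups overlapped (log2 change -0.02, limma adjusted p = 0.783, 95% interval from -7.94% to 5.07%). Aph1b was at 335, 322 and 376 in vehicle and at 304, 348 and 356 under DAPT. These groups overlapped as well (log2 change -0.04, limma adjusted p = 0.803, 95% interval from -12.2% to 8.49%). Aph1c, the lowest of the 9 genes, was at 79.9, 72.1 and 65.5 in vehicle and at 73, 62.1 and 74.3 under DAPT. Its groups overlapped too, and its interval was the widest of the 9, from -21% to 17.4% (log2 change -0.05, limma adjusted p = 0.842).

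The APH-1 genes were also compared with one another per kilobase of the gene length that the authors deposited. On that scale Aph1a made up 87.1%, 86.9% and 85.4% of the sum of the 3 genes in the vehicle libraries and 87.1%, 86.3% and 86.5% in the DAPT libraries. The share of Aph1a was 86.5% ± 0.898 in vehicle and 86.6% ± 0.413 under DAPT (SD, n = 3 each), a difference of 0.153 percentage points, smaller than the spread between libraries (exact two-sided permutation p = 0.8, where 3 against 3 libraries cannot go below 0.1). The sign of this difference turned on single libraries. It grew to 0.459, 0.363 and 0.318 points when vehicle replicate 1, vehicle replicate 2 or DAPT replicate 2 was left out. It was negative, at -0.363 and -0.0784 points, when vehicle replicate 3 or DAPT replicate 1 was left out. Aph1b made up 9.87% ± 1.11 and 9.78% ± 0.682, and Aph1c 3.68% ± 0.21 and 3.61% ± 0.285. The level of the share turned on the length used, while the difference between groups was smaller than the spread with either length. With the longest coding transcript of each gene in GENCODE M21, an alternative chosen after seeing the data, Aph1a held 82.9% ± 1.33 in vehicle and 83.1% ± 0.712 under DAPT. Aph1a held over 80% of the summed level in each library under both lengths, and from 71.7% to 75% with no division by length. The uncertain counts of Aph1b and Aph1c enter all these shares. Reads lost from those genes would raise the share of Aph1a, and whether any were lost was not tested.

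Over all 9 genes, levels per kilobase of deposited length fell into the same order in both groups, from Adam10 and Ncstn through Psenen, Aph1a, Adam17, Bace1, Psen2 and Aph1b to Aph1c. In vehicle, Adam10 at 572 ± 16.6 and Ncstn at 569 ± 21.7 normalised counts per kilobase did not differ beyond their spread. Under DAPT their ranges separated, at 627 ± 18.5 and 528 ± 8.51. Psenen and Aph1a, a small subunit and the scaffold, came next with clear gaps. Psenen stood at 436 ± 20.8 in vehicle and 475 ± 18.5 under DAPT, and Aph1a at 314 ± 17.3 and 308 ± 13. Adam17 was at 147 ± 2.3 and 169 ± 1.19 and Bace1 at 134 ± 4.84 and 122 ± 4.72 per kilobase, with no overlap between these neighbours in either group. The remaining subunit genes were the lowest. Psen2 was at 45.7 ± 3.94 and 47.2 ± 0.562, Aph1b at 35.7 ± 2.95 and 34.8 ± 2.88, and Aph1c at 13.4 ± 1.33 and 12.9 ± 1.24.

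The upper part of this order depended on gene length. The deposited length of Adam17 is 11600 bases and its longest coding transcript in GENCODE M21 has 4469. For Psen2 the lengths are 6437 and 2020 bases, and how the authors built theirs is not given in the sources used here. With transcript lengths Ncstn stood above Adam10, at 950 ± 36.2 against 793 ± 23 per kilobase in vehicle, with no overlap. Under DAPT Ncstn and Adam10 overlapped, at 882 ± 14.2 and 870 ± 25.7. Aph1a, Psenen and Adam17 then stood close together at 410 ± 22.5, 399 ± 19.1 and 383 ± 5.97 in vehicle, where the neighbours' ranges overlapped. Under DAPT their order was reversed, with Adam17 at 438 ± 3.08, Psenen at 435 ± 16.9 and Aph1a at 403 ± 17. There the neighbours' ranges overlapped too, but those of Adam17 and Aph1a did not. Bace1, Psen2, Aph1b and Aph1c kept the lowest places in both groups under both lengths.

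**Figure D2:**
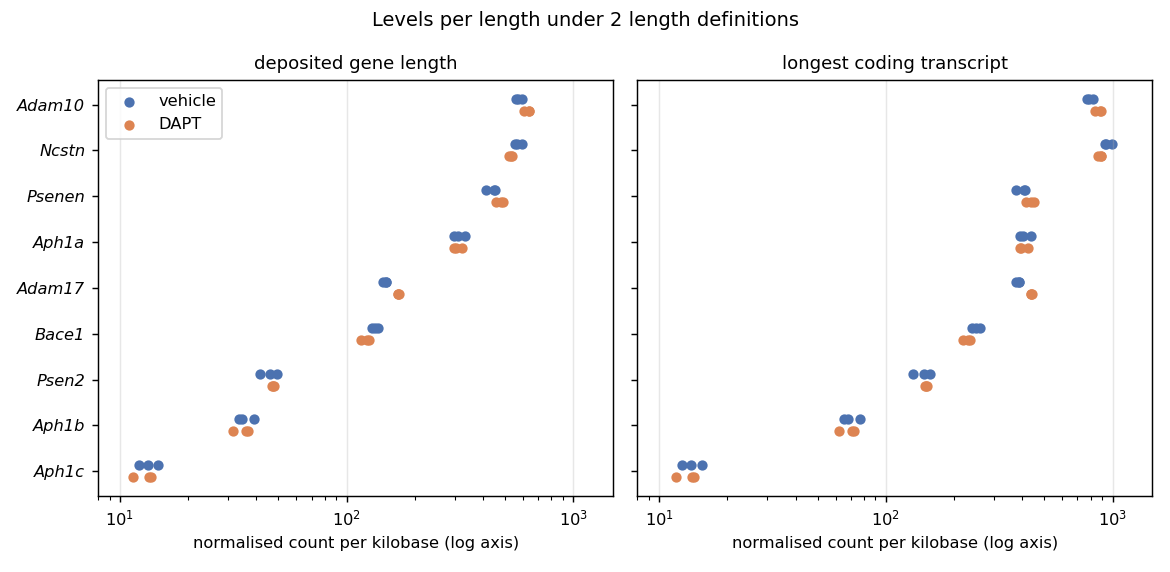
Normalised count per kilobase (horizontal log axes) of the 9 genes in each library, with the deposited gene length on the left and the longest coding transcript on the right; each point is a library. Aph1c, Aph1b and Psen2 hold the 3 lowest places under both lengths, while Adam17 moves from 147 to 383 in vehicle and stands beside Aph1a and Psenen on the right.

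ADAM10 is the protease that makes the ligand-induced first cut of Notch receptors. Adam10 was at 3761, 3614 and 3557 in vehicle and at 3858, 4053 and 4070 under DAPT, the highest normalised counts of the 9 genes. The groups did not overlap, and DAPT replicate 1 was nearest to the vehicle libraries. Adam10 rose by 9.59% (log2 change 0.13, SE 0.035, limma adjusted p = 0.00912). The call did not hold without DAPT replicate 2 (adjusted p = 0.0617), without DAPT replicate 3 (0.0599), in edgeR on 5 libraries (0.0713) or in DESeq2 on 5 libraries (0.169). Its adjusted p in the authors' deposited table is 0.0323.

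ADAM17, first known as the enzyme that releases tumour necrosis factor, also sheds ligands of the EGF receptor and can cut Notch independently of ligand. Adam17 was at 1680, 1727 and 1725 in vehicle and at 1945, 1959 and 1972 under DAPT. Every DAPT library was above every vehicle library, and the gap between the groups was wider than the range within either. Adam17 rose by 14.5% (log2 change 0.20, SE 0.0362, limma adjusted p = 0.000344). It is the 1 member whose call held under all 16 alternatives, with adjusted p between 0.000161 and 0.0208. In the authors' deposited table its adjusted p is 0.00221.

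BACE1 is an aspartic protease anchored in the membrane, best known as the beta-secretase of neurons. Bace1 was at 1569, 1517 and 1459 in vehicle and at 1421, 1318 and 1395 under DAPT. The groups did not overlap, and vehicle replicate 3 and DAPT replicate 1 came closest. Bace1 fell by 9.03% (log2 change -0.14, SE 0.0418, limma adjusted p = 0.0237). The call did not hold without vehicle replicate 1 (adjusted p = 0.0907), vehicle replicate 2 (0.0668), DAPT replicate 2 (0.158) or DAPT replicate 3 (0.0519), and it did not hold in edgeR (0.05, not below the threshold) or DESeq2 (0.248) on 5 libraries. In the authors' deposited table Bace1 has an adjusted p of 0.133 and Ncstn of 0.155, both over the threshold.

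**Figure D3:**
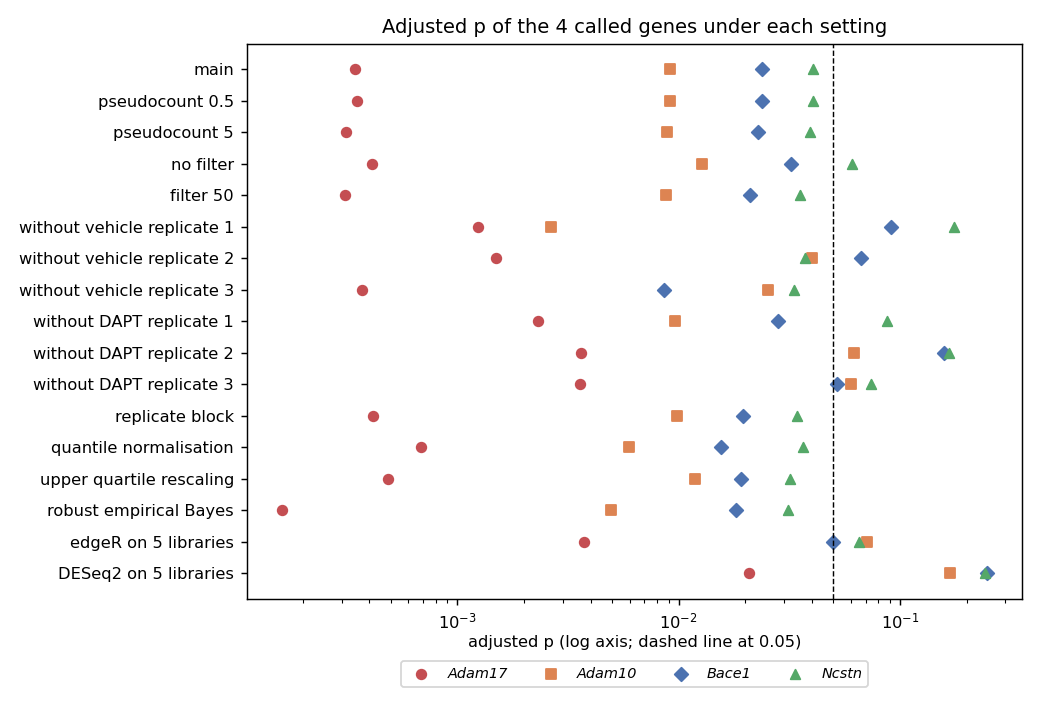
Adjusted p (horizontal log axis, dashed line at 0.05) of the 4 called genes in the main test and under each of 16 alternative settings (vertical axis). Adam17 stays left of the line under every setting, with a highest value of 0.0208, while Adam10, Bace1 and Ncstn cross it under 4, 6 and 7 of them.

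Adam10 and Adam17 were also set against each other within each library. Per kilobase of deposited length, Adam17 made up 19.7%, 20.8% and 21% of their sum in vehicle and 21.7%, 21% and 21% under DAPT. The shares overlapped between groups, at 20.5% ± 0.711 and 21.2% ± 0.394, and differed by 0.719 percentage points (exact two-sided permutation p = 0.3, where the smallest possible is 0.1, so that a p below 0.05 could not be reached). The difference was 0.315 points without vehicle replicate 1 and ran up to 0.982 without vehicle replicate 3. Whether Adam17 rose by more than Adam10 could not be settled with 3 libraries per group. With transcript lengths the share was 32.6% ± 0.961 in vehicle and 33.5% ± 0.525 under DAPT.

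Because both genes rose, their promoters are shown, as the 250 bases before the start given by RefSeq on GRCm38.p6. The motifs searched, on both strands, were TGGGAA (the core bound by RBPJ, the factor that Notch acts through), GGGCGG (the GC box) and TGACTCA (an AP-1 site), with matches in capitals. Neighbouring GC boxes in Adam10 share a base.
Adam10, chr9:70678732-70678981, plus strand: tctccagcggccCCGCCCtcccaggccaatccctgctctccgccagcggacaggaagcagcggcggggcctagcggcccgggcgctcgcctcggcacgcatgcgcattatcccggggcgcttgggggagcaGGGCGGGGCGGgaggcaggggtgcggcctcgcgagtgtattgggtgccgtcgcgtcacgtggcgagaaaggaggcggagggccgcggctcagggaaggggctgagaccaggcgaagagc
Adam17, chr12:21373633-21373882, minus strand: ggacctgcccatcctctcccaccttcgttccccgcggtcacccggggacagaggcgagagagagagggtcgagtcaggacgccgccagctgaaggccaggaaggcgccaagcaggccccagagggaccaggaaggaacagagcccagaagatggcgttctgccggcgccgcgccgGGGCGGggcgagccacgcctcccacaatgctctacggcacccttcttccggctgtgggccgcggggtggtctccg
Adam10 holds 3 GC boxes and Adam17 holds 1, and 32.7% of all 32851 promoters of this length hold at least 1. GC boxes also occur before uncalled members: 2 in 1 promoter of Psen2, 1 in Aph1a, 2 in Aph1b and 6 in Aph1c. Ncstn and Psenen hold none, and no promoter was matched for Bace1. Neither window holds TGGGAA, which 21.6% of promoters hold, or TGACTCA, which 4.46% hold. The uncalled Psen2 and Psenen each hold TGGGAA in 1 promoter. These letters are a description of the windows only.

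Genes around these proteases were described from 8 lists of 50 genes in the table, of which 46 were tested: 6 lists of regulators and partners and 2 of related proteases. Over the lists 4 genes rose, 8 fell and 34 did not pass, beside 9.22% higher and 8.91% lower over all genes. The 8 that fell included all 4 listed inhibitors of sheddases.

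The inhibitors had a median log2 change of -0.66, against 0.0009 over all genes, and in all 4 the groups did not overlap, as in 33.3% of all genes tested. Timp3, a secreted inhibitor of ADAM17 and ADAM10, was at 23840, 23119 and 24575 in vehicle and at 12461, 12165 and 12704 under DAPT, which is 1.92-fold lower (limma adjusted p = 5.77e-16, log2 change -0.94, SE 0.0331). The DAPT libraries were all at close to 1 level, far below the vehicle libraries. Sfrp1, a secreted Wnt antagonist that also inhibits ADAM10, was at 4159, 3512 and 3517 and at 1864, 1687 and 1877, 2.06-fold lower (limma adjusted p = 2.99e-13, log2 change -1.04). Timp1, which inhibits ADAM10 as well as matrix metalloproteinases, was at 1905, 1826 and 1871 and at 1491, 1363 and 1475, 1.29-fold lower (limma adjusted p = 2.49e-07). Reck, a membrane-anchored inhibitor of matrix metalloproteinases and ADAM10, was at 1460, 1379 and 1343 and at 1224, 1180 and 1216, 1.15-fold lower (limma adjusted p = 0.000831). These calls held under all 16 alternatives. The largest log2 change in size among the 9 genes above was 0.20, in Adam17. In the same libraries 4 of 5 mesothelial markers fell and 1 did not pass (median log2 change -0.76). Of 10 fibroblast markers 6 fell, 2 rose and 2 did not pass (median -0.17). Over all genes tested 8.91% were called lower and 9.22% higher. The part of these markers in the fall of the inhibitors was not tested. The list was made with the fall of Timp3 known from earlier results on these libraries.

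**Figure D4:**
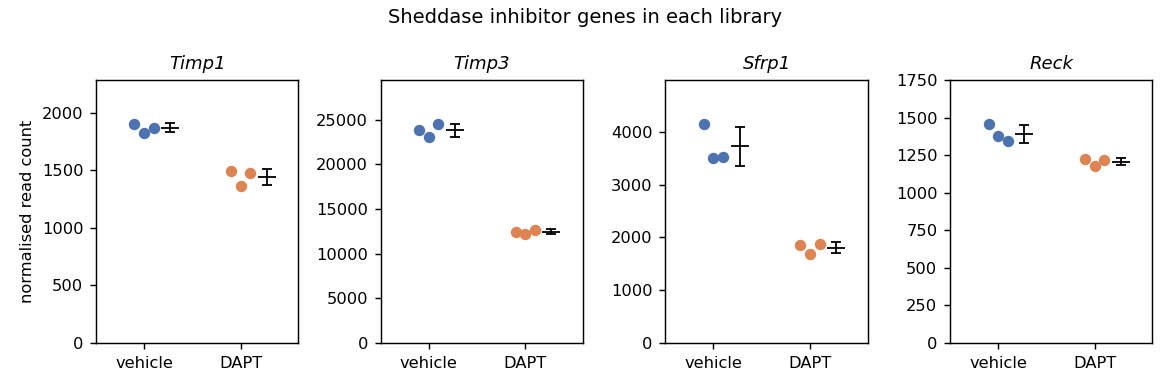
Normalised read count (vertical axes, from 0) of Timp1, Timp3, Sfrp1 and Reck in the 3 vehicle and 3 DAPT libraries; points are libraries and the black marks show mean ± SD. In each gene the DAPT libraries lie below the vehicle libraries, by 1.15-fold in Reck and up to 2.06-fold in Sfrp1.

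Of 7 tested partners that carry ADAM10 and ADAM17 to the cell surface 1 was called, a share near the 18.1% of all genes tested. Tetraspanins of the TspanC8 group escort ADAM10 out of the endoplasmic reticulum. Of the 4 that were tested, Tspan5 rose from 999, 1067 and 1132 to 1188, 1193 and 1261 (limma adjusted p = 0.00519, log2 change 0.19), a call that did not hold in edgeR (0.0549) or DESeq2 (0.244) on 5 libraries. Tspan14, Tspan15 and Tspan17 did not pass, and Tspan10 and Tspan33 were below the filter, with Tspan10 at 0 in all libraries but DAPT replicate 1. Of the 3 partners of ADAM17 none passed limma's test. Rhbdf1 and Rhbdf2 encode the iRhoms, which take ADAM17 to the Golgi, and Frmd8 encodes a protein that keeps the complex stable. Frmd8, the most abundant, was at 1370 ± 33.7 in vehicle and 1333 ± 55 under DAPT, and Rhbdf2 was at 179 ± 8.68 and 205 ± 25.5 (limma adjusted p = 0.171).

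Proprotein convertases remove the inhibitory prodomain of the ADAMs, and furin is the member best known for it. Furin itself, at 1547 ± 61 in vehicle and 1466 ± 51.3 under DAPT, was not called (limma adjusted p = 0.217), nor was Pcsk7. Pcsk5 fell from 240, 220 and 185 to 147, 159 and 159 (log2 change -0.46, limma adjusted p = 0.00114). Pcsk6 fell from 95, 85.3 and 87.7 to 60.6, 54.7 and 48.5 (limma adjusted p = 0.000632, log2 change -0.70), a call that did not hold in DESeq2 on 5 libraries (0.108). These 2 of 4 convertases called lower stand beside 8.91% called lower of all genes tested. In the same 2 the groups did not overlap, beside 33.3% of all genes tested.

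Of 10 tested genes for assembly factors and modulators of gamma-secretase, 1 rose, 1 fell and 8 did not pass, with a median log2 change of 0.04. That is near the 18.1% called of all genes tested. Arrb1, a beta-arrestin reported to bind the APH-1 subunit, rose from 789, 817 and 810 to 1102, 1020 and 997 (log2 change 0.37, SE 0.0465, limma adjusted p = 2.36e-06). Its paralogue Arrb2 was at 380 ± 11.1 and 382 ± 11.5 (limma adjusted p = 0.971). Bsg, which encodes the membrane glycoprotein basigin, found with gamma-secretase in purified preparations, fell from 8844, 8658 and 8924 to 7778, 7354 and 7830 (log2 change -0.20, limma adjusted p = 7.37e-05). Rer1, which holds unassembled subunits in the early secretory pathway, was at 1586 ± 78.6 and 1668 ± 60.6, and Tmed10, a cargo receptor that modulates gamma-secretase, at 2812 ± 55.4 and 2844 ± 98.4. Neither Rer1 nor Tmed10 passed (limma adjusted p = 0.259 and 0.818).

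Among genes known to act on BACE1, 1 of 6 tested rose and 5 did not pass, beside 18.1% called of all genes tested. Vps35, a core subunit of the retromer that retrieves BACE1 from endosomes, rose from 3776, 3759 and 4025 to 4301, 4446 and 4490 (log2 change 0.20, limma adjusted p = 0.000241). The reticulons Rtn3 and Rtn4, which bind and restrain BACE1, were at 4124 ± 97.7 and 4099 ± 47.9 and at 4207 ± 109 and 4440 ± 104, and neither passed. The sorting adaptors Gga1, Gga2 and Gga3 did not pass.

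Related proteases were set beside the 9 genes, and their counts are to be read beside the 18.1% called of all genes tested. Of 6 other ADAM genes tested, Adam12 fell from 341, 281 and 259 to 162, 165 and 170, 1.75-fold lower (limma adjusted p = 3.36e-07, log2 change -0.81, SE 0.0907), and Adam8, Adam9, Adam15, Adam19 and Adam33 did not pass. Adam9 was at 6078 ± 186 and 6403 ± 132, with no overlap between groups and a limma adjusted p of 0.126. Of 9 other intramembrane and aspartic proteases 1 rose and 8 did not pass. Bace2, the nearest relative of Bace1, was at 167 ± 7.1 and 158 ± 8.71 (limma adjusted p = 0.611). H13, the signal peptide peptidase, shares its catalytic motif with the presenilins and was at 1567 ± 12 and 1485 ± 13.1 (limma adjusted p = 0.164). Parl, a rhomboid protease of mitochondria, rose from 355, 354 and 378 to 428, 407 and 401 (limma adjusted p = 0.0358, log2 change 0.19). Parl lost its call when vehicle replicate 1 or 2 or any DAPT library was left out, with adjusted p from 0.0591 to 0.141, and in edgeR (0.0667) and DESeq2 (0.373) on 5 libraries.

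**Figure D5:**
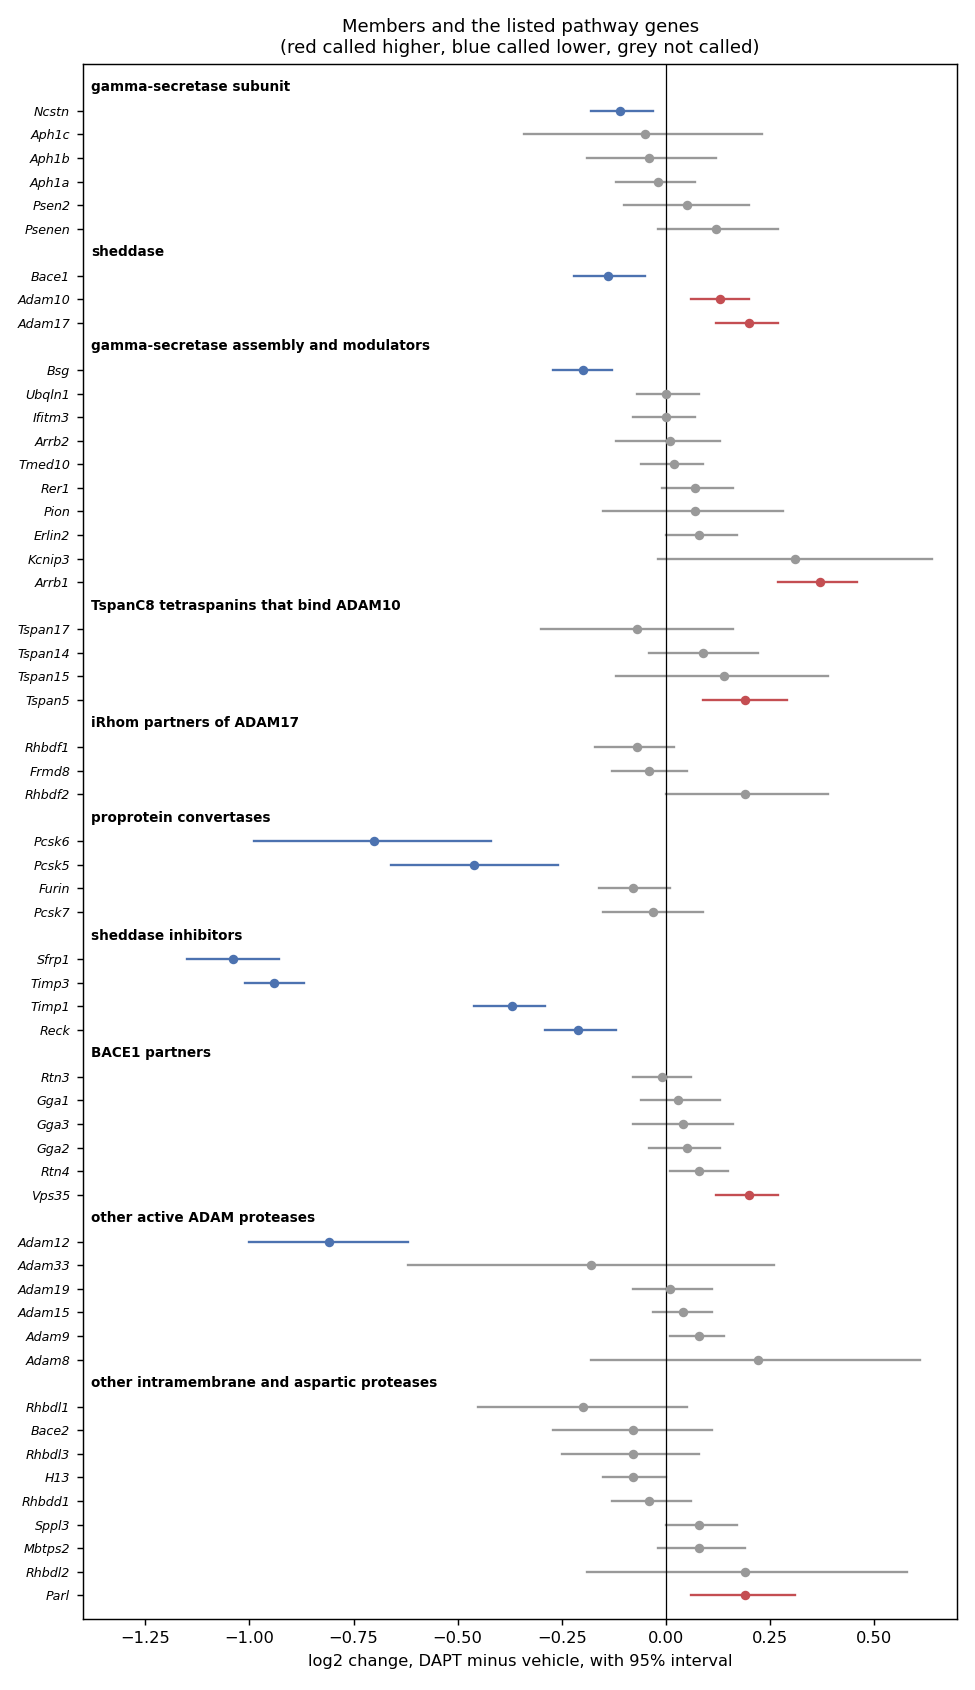
Log2 change, DAPT minus vehicle (horizontal axis), with its 95% interval for the 9 genes and the 46 tested genes of the 8 lists; red was called higher, blue lower and grey not called. The subunits lie within 0.12 of 0, Adam10 and Adam17 at 0.13 and 0.20, and Timp3 and Sfrp1 at -0.94 and -1.04.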

How the data were processed

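RNA was measured in 3 vehicle and 3 DAPT libraries. Per the submitters' processing notes, TopHat2 2.0.4, HTSeq 0.5.4p3, DESeq 1.16.0 and build mm9 were used, with no roles given. The authors deposited, per the file headers and the values, a signal per library that equals the read count divided by 1 size factor. All values were whole multiples of 1 read within 0.01 reads. DAPT replicate 3 has a size factor of 1.01, too near 1 for its values to be accepted as recovered reads, so edgeR 4.0.16 and DESeq2 1.42.0 used 5 libraries. The authors also deposited RPKM values as group means (not used, since they carry no spread), a gene length, a log2 ratio, and p-values with adjusted p-values.

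Genes were tested with limma 3.58.1 (R 4.3.3) on log2 values, with a trend of variance on level, no covariate, and a filter of 10 or more in at least 3 libraries. Limma's test was also run on simulated data with 50 changed genes per size. It called 6% of those changed 1.1-fold, 66% at 1.25-fold, 98% at 1.5-fold and 100% at 2-fold. Of unchanged genes it called 0.0681%. The 4 called members, which changed by 7.2% to 14.5%, lie nearest to the 1.1-fold size. The simulated spread was set by hand, so these shares need not hold here. Alternatives changed the pseudocount, filter, scaling, block, test, gene length or libraries. Members and lists were chosen with earlier results of these data known. The naming rule took all members, called list genes and, for a list with no call, its most abundant gene; other uncalled list genes named were chosen after their values were seen. Sppl2a and Sppl2b were not analysed here. Promoters matched 8 of 9 members by symbol. 1 further gene of the complex is not reported here.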

Additional observations from a re-analysis of the deposited data

How the results depend on the processing

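Of the 4 called genes, Adam17 held its call under 16 of 16 alternatives, Adam10 under 12, Bace1 under 10 and Ncstn under 9, and none changed direction. The number of members called higher was 1 in edgeR and 1 in DESeq2, and 1 to 2 with 1 library left out. The number called lower was 1 without a filter, 0 in edgeR and 0 in DESeq2, and 0 to 2 with 1 library left out. In all, 1 member was called in edgeR and 1 in DESeq2, and 1 to 4 with 1 library left out. Over all genes DESeq2 called 934, 425 higher and 509 lower, against 2703, 1375 and 1328. Of the listed genes, edgeR and DESeq2 called 2 higher each, against 4. Both count tests used 5 libraries, without DAPT replicate 3. On those 5 libraries limma called 1956 genes and edgeR 1941, and why DESeq2 called fewer was not tested. Among the members, limma on those 5 libraries called 1 higher, Adam17, and 0 lower, the same as both count tests. Small changes of uncalled genes took the other sign with 1 library left out. The log2 change of Psen2 ran from -0.015 (vehicle replicate 3 left out) to 0.11, that of Aph1a from -0.058 to 0.02 (vehicle replicate 1), that of Aph1b from -0.082 to 0.034 (DAPT replicate 1, with 0.03 for vehicle replicate 3), and that of Aph1c from -0.12 to 0.026 (DAPT replicate 2, with 0.017 for vehicle replicate 1). With 1 library left out, the share difference of Aph1a ran from -0.363 to 0.459 points (-0.0784 without DAPT replicate 1) and that of Adam17 from 0.315 to 0.982. The vehicle share of Aph1a was 73.7% with no division by length and 82.9% with transcript length, and that of Adam17 was 32% and 32.6%, against 86.5% and 20.5%.

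No pairing of the libraries by replicate number was seen in the values. Same-numbered deviations correlated at 0.0267, -0.0175 and 0.0099 over genes, and not every library correlated best with its own number. How the libraries were prepared cannot be read from these correlations. With the replicate block 2732 genes were called, and the same 4 members. The 95% intervals of the uncalled subunits reach from -21% to 20.4%, so these genes are not shown to be unchanged.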
